A study of Mus musculus with 965 samples.

Results

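The 28 genes encoded on the mitochondrial chromosome that the count table lists were followed through differentiating mouse embryoid bodies. They were taken by name, as all rows whose symbol starts with mt-, and were 28 of 36849 genes: 2 rRNA genes, 12 protein genes and 14 tRNA genes. Of the 37 mitochondrial symbols in the GENCODE annotation of GRCm38, the other 9 (mt-Nd4l and 8 tRNA genes) have no row and were not analysed here. E14 mouse embryonic stem cells (ESCs) had been grown without leukaemia inhibitory factor as embryoid bodies (EBs), 3-dimensional aggregates in which germ layers form, and 965 single cells were profiled by Smart-seq2, which copies polyadenylated RNA over its full length and has no molecular identifiers. The cells were wild type (WT, 1 culture), Dnmt3a-/- (3AKO, clones 3A2 and 3A38) or Dnmt3b-/- (3BKO, clones 3B126 and 3B77), at days 3, 6 and 8, with no day 8 cells of clone 3A2. Each clone at each day filled 1 plate, except WT at day 8 with plates of 21 and 68 cells, which gave 15 plates and 14 libraries of 21 to 80 cells a plate. For each plate EBs had been pooled before single live cells were sorted, so that cells of a plate share their pool of EBs and their plate. Some cells, among them cells of the 3B126 plate and the smaller WT plate at day 8, carry an extra tag ending in NPM in their titles. The labels do not give its meaning, and these cells were not set apart. All 3AKO cells formed batch 1, WT and 3B126 batch 2, and 3B77 batch 3, so that only 3B126 and WT can be compared within a batch.

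The deleted genes were read in every plate. Dnmt3a had 0.898 to 24.1 CPM (counts scaled to an equal library total) in the 5 plates of 3AKO and 14.1 to 153 in the other 10, and Dnmt3b had 4.24 to 37.3 in the 6 plates of 3BKO and 0.651 to 285 in the other 9, so that the ranges overlap. Which exons were deleted was not looked up in the reads, and a count over the whole gene does not check the deletion. A pair of plates went against the other plates of their clone: a read of a Y-linked gene was found in 14 of 40 cells in the library labelled 3B77 day 8, against 0 of 79 and 0 of 71 cells of 3B77 at days 3 and 6, while 0 of 68 cells of the larger WT plate at day 8 had one, against 30 of 74 and 40 of 67 cells of WT at days 3 and 6. Values of WT at day 8 below join this larger plate with the plate of 21 cells. They carry the same doubt as those of the library labelled 3B77 day 8.

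Mitochondrial DNA is transcribed from both strands into long precursors, which are cut largely at the tRNAs that stand between the other genes. The rRNAs build the mitochondrial ribosome, the tRNAs serve it, and the protein genes encode core subunits of the respiratory chain: Nd1 to Nd6 of complex I, Cytb of complex III, Co1 to Co3 of complex IV and Atp6 and Atp8 of the ATP synthase. All other subunits, and the factors that copy and transcribe the mitochondrial DNA, are nuclear genes. In single-cell work the mitochondrial share of reads is commonly used to judge the state of a cell, and here the authors had already left out cells with more than 50% mitochondrial reads. The share therefore ends below that limit in every plate, and it does not separate more mitochondrial RNA from less nuclear RNA in a cell.

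Several members have near-identical copies on chromosome 1, and reads that mapped to several places had not been counted. mt-Nd3 and its copy Gm28438 are shown over their first 75 bases, the length of a read, because a single base separates the member with almost no reads from the copy that has many. The capital marks that base (T3C, counted from 1 at the gene's first base). Both are GRCm38 transcript sequences from GENCODE, 5′ to 3′, mt-Nd3 at chrM:9459-9533 on the plus strand and Gm28438 at chr1:24613045-24613119 on the minus strand.
mt-Nd3: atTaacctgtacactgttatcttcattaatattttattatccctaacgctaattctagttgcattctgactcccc
Gm28438: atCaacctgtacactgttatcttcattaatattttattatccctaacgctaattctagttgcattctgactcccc

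Over the 345 bases that the pair shares, T3C was the only difference. The copies Gm28661 of mt-Co2, Gm10925 of mt-Atp6 and Gm28437 of mt-Co3 had 0 differences over 681, 678 and 783 bases, and Gm28439 had 0 over the first 876 bases of mt-Nd4. Gm29216 differed from the last 492 bases of mt-Co1 at 6 places, all between T1056A and A1066T.

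The tRNAs mt-Tq, mt-Tc and mt-Tf held most of the tRNA reads and are printed whole, with the longest run of A in each in capitals, since the library was primed on A stretches. mt-Tq (glutamine) lies at chrM:3772-3842 and mt-Tc (cysteine) at chrM:5192-5257, both on the minus strand, and mt-Tf (phenylalanine) at chrM:1-68 on the plus strand.
mt-Tq: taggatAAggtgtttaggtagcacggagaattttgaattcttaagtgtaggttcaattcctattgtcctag
mt-Tc: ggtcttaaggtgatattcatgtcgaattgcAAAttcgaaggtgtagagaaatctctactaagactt
mt-Tf: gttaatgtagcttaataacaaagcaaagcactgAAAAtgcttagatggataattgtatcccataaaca

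The runs are 2, 3 and 4 bases long. The 14 tRNA genes with a row are 59 to 75 bases long, and only mt-Tl1, with 75, can hold a whole read of 75 bases. A read counted for any other of them was shorter after trimming or ran past the end of the gene.

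The 28 genes took 82454691 of 373866909 reads, 22.1%. mt-Rnr2, the 16S rRNA of the large ribosomal subunit, had 57590696 reads and was read in all 965 cells. mt-Rnr1, the 12S rRNA of the small subunit, had 799196 reads and was also read in all cells. Per kb of gene, mt-Rnr2 had 36403700 reads and mt-Rnr1 836854, so that the larger rRNA dominated the mitochondrial reads beyond its length. In the 14 libraries the ratio of mt-Rnr2 to mt-Rnr1 per kb ran from 19.3 in 3B126 at day 3 to 114 in 3A2 at day 3.

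Among the protein genes mt-Co1 (9064999 reads), mt-Cytb (6147642 reads) and mt-Nd1 (5111478 reads) together held 85.4% of the protein-gene reads. Per kb of whole gene they had 5867310, 5373810 and 5341150 reads. The search below found 39.8% of the windows of mt-Co1 in nuclear transcripts and 0 of mt-Cytb and mt-Nd1. Values per kb of whole gene therefore do not compare mt-Co1 with the other 2 on equal terms. The other complex I genes followed with 1359551 reads for mt-Nd4, 1171737 for mt-Nd5, 756708 for mt-Nd2 and 175907 for mt-Nd6, the protein gene with the opposite strand. The other 5 protein genes were almost empty: mt-Co2 had 17 reads, mt-Co3 and mt-Nd3 had 29 each, mt-Atp6 had 32, and mt-Atp8 had 39 in 2 cells of WT at day 3. Apart from tRNA genes, these 5 genes stand next to each other on the chromosome, and the copies of 4 of them follow in the same order on chromosome 1. A search for every 75-base window of each gene in the nuclear transcripts, on both strands, found 99.5% of the windows of mt-Co2 and of mt-Atp6, 99.9% of mt-Co3 and 97.8% of mt-Nd3. It found 61.5% of the windows of mt-Nd4, 39.8% of mt-Co1, 5.71% of mt-Nd2, 1.66% of mt-Nd5 and 0 of mt-Nd1, mt-Cytb, mt-Nd6, mt-Rnr1 and mt-Rnr2. mt-Atp8 also had 0, but the stretch of chromosome 1 beside Gm28661 and Gm10925 has no annotated transcript to search. Counts of mt-Nd4 and mt-Co1 thus rest on part of the gene, and the 5 near-empty genes cannot be read as low or absent RNA.

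**Figure D1:**
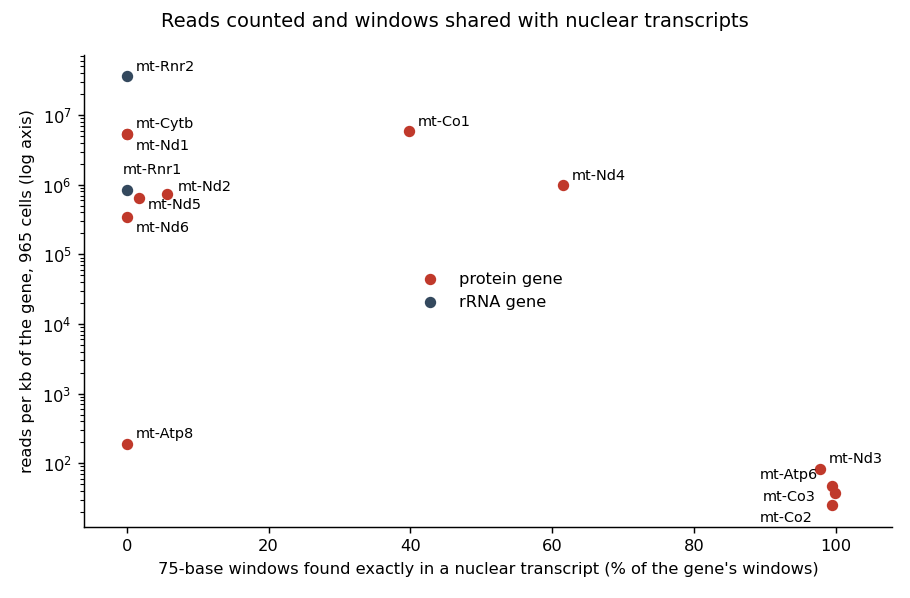
Reads per kb of gene over all 965 cells (log axis) against the percent of the gene's 75-base windows that occur exactly in a nuclear transcript, 1 point per rRNA or protein gene. mt-Co2, mt-Atp6, mt-Co3 and mt-Nd3 lie at 97.8% or more and have 17 to 32 reads, and mt-Atp8 has 39 reads with no window found.

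The copies took few reads, except Gm28438. Gm28661 had 329 reads, Gm10925 766, Gm28437 1441, Gm28439 136 and Gm29216 1418. Gm28438 had 42614 reads in 934 cells, against 29 reads of mt-Nd3. By plate Gm28438 had 139 to 3199 reads, except 12764 in 3B126 and 11243 in WT at day 3. Whether these reads came from the nuclear copy or from mitochondrial RNA that carries the same base was not tested.

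The mitochondrial share of reads differed widely between cells of a plate and between plates of a clone. Over all cells it had a median of 17.5%, with quartiles at 11.6% and 25.9%, a lowest value of 1.23% and a highest of 49.2%. It was over 25% in 258 cells and over 40% in 43. The median over cells of WT was 15.7%, 28.6% and 17.2% at days 3, 6 and 8. In 3B126, of the same batch, it was 18.2%, 29.04% and 18.99%, so that both lines of batch 2 were highest at day 6 and 3B126 stood above WT by 2.54, 0.431 and 1.82 percentage points. Clone 3A2 was also higher at day 6, with 26.3% against 18.8% at day 3. Clone 3A38 went the other way, from 22.9% at day 3 down to 10.8% at day 6, with 15.3% at day 8, and so did 3B77, with 16.03%, 11.9% and 14.1%. The shares of cells over 25% followed the same split, from 56.25% in 3A2, 58.2% in WT and 65.5% in 3B126 at day 6 down to 4.17% in 3A38 and 2.82% in 3B77 at that day.

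**Figure D2:**
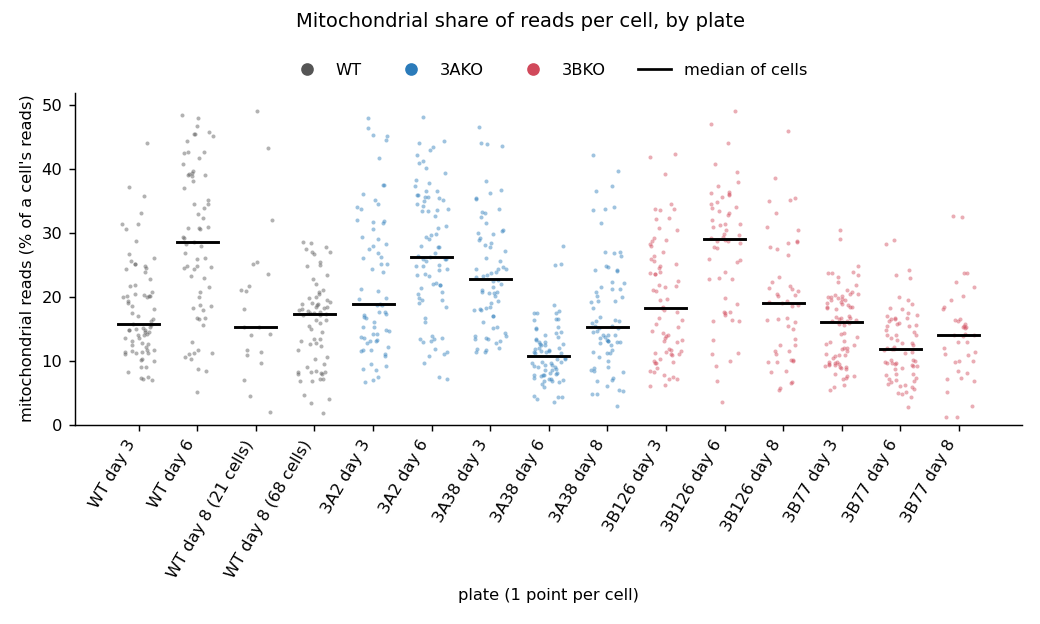
Mitochondrial reads as a percent of a cell's reads (y axis) in each of 15 plates (x axis), 1 point per cell, with a bar at the median of the plate. The day 6 plates of WT, 3A2 and 3B126 have medians of 26.3% to 29.04%, those of 3A38 and 3B77 of 10.8% and 11.9%.

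No difference between days, or between 3BKO and the other clones pooled, passed the tests over libraries, and 3AKO was not tested against WT. The mean of the library medians was 18.3% ± 2.88 (SD, n = 5) at day 3, 21.3% ± 9.18 (SD, n = 5) at day 6 and 16.4% ± 2.16 (SD, n = 4) at day 8. Day 6 exceeded day 3 by 2.98 percentage points (exact two-sided permutation test over libraries, p = 0.50, Benjamini-Hochberg adjusted p = 0.888 over 18 tests). Day 8 differed from day 6 by -4.94 points (exact permutation p = 0.286, adjusted p = 0.888). The 3BKO clones had means of 17.1%, 20.5% and 16.5% at days 3, 6 and 8, and the other clones 19.1%, 21.9% and 16.2% (exact permutation p = 0.60, 0.80 and 1). With 2 clones against 3 no p below 0.20 can be had at days 3 and 6, and with 2 against 2 none below 0.333 at day 8. The order of the days turned with the genes counted: with protein genes alone in the numerator day 6 minus day 3 was -0.559 points. The clones of 1 genotype differed at day 6 by more than the genotypes did.

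The balance between rRNA and protein genes differed widely between libraries. Of all counted mitochondrial reads 70.8% were rRNA, 28.9% protein-gene and 0.335% tRNA reads. The protein part is undercounted, since 5 protein genes were almost empty and mt-Nd4l has no row. Counts of mt-Nd4 and mt-Co1 rest on part of the gene, while no window of the rRNA genes was shared. The split is therefore one of counted reads and not of mitochondrial RNA. At each day the rRNA percent was highest in WT, with 87.8%, 84.2% and 81.5% at days 3, 6 and 8. At day 8 the rRNA percent was 82.8% in the larger WT plate, which had no Y-linked read, and 79.9% in the smaller. In 3B126 it was 84.3%, 73.9% and 75.4%, which within batch 2 differed from WT by -3.53, -10.3 and -6.09 points. In 3B77 it was 73.3% and 77.6% at days 3 and 6, and 58.7% in the library labelled 3B77 day 8. In 3AKO it was 61.3% and 74.9% in 3A2 at days 3 and 6, and 56.4%, 66.1% and 48.1% in 3A38 at days 3, 6 and 8, the lowest values of days 3 and 8 and, in 3A38, of day 6. In 3A38 at day 8 protein-gene reads thus outnumbered rRNA reads.

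**Figure D3:**
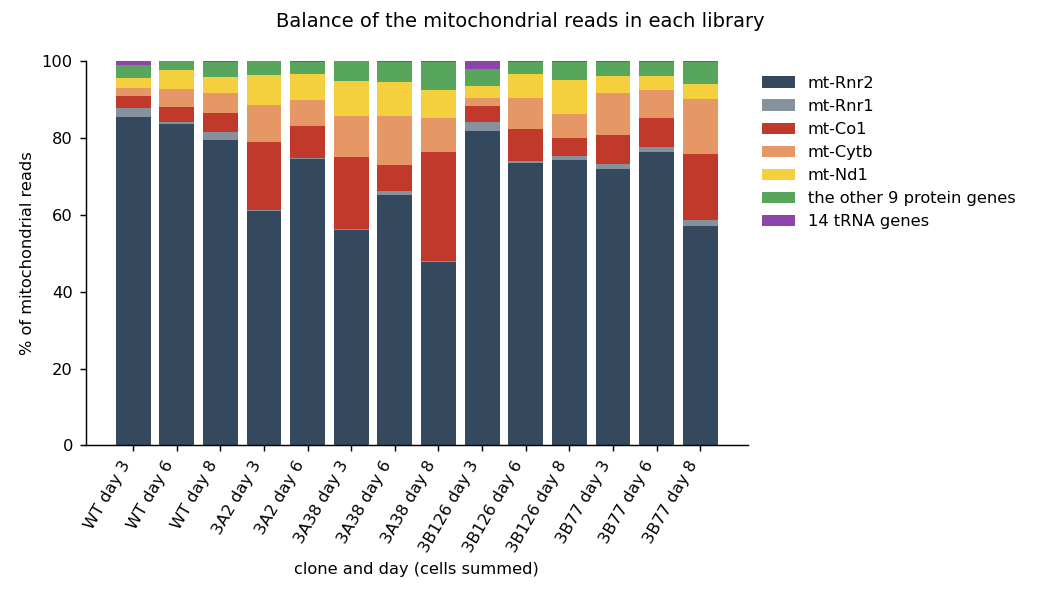
Percent of the counted mitochondrial reads (y axis) held by mt-Rnr2, mt-Rnr1, mt-Co1, mt-Cytb, mt-Nd1, the other 9 protein genes and the 14 tRNA genes in each of 14 libraries (x axis), with cells summed. Of the other 9 protein genes 5 were almost empty. The rRNA part runs from 48.1% in 3A38 at day 8 to 87.8% in WT at day 3.

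The 3B126 to WT differences within batch 2 and the low values of 3AKO were not tested. Differences between days, and between 3BKO and the other clones, did not pass the tests over libraries. The mean rRNA percent was 72.6% ± 13.8 (SD, n = 5) at day 3, 75.4% ± 6.55 (SD, n = 5) at day 6 and 65.9% ± 15.3 (SD, n = 4) at day 8. The day 8 mean differed from day 6 by -9.42 points (exact permutation p = 0.270, adjusted p = 0.888). Within clones, day 8 was below day 3 in 4 of 4 clones, with a mean difference of -9.49 points (exact sign-flip permutation p = 0.125, the smallest that 4 clones allow). The 3BKO clones exceeded the other clones by 10.3 points at day 3 (exact permutation p = 0.60, adjusted p = 0.888). Batch 1 held all 3AKO cells, so that in the low rRNA percent of 3AKO at days 3 and 8 genotype and batch cannot be told apart. Without the library labelled 3B77 day 8 and the larger WT plate of day 8, day 8 minus day 6 was -7.57 points, and without the day 3 libraries of 3B126 and WT, an alternative chosen after seeing the data, day 8 minus day 3 was 2.29 points. That mean keeps the day 8 libraries of both lines, and within 3A38 and 3B77, which keep both days, day 8 minus day 3 was -8.29 and -14.5 points.

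Among the 7 well-read protein genes mt-Co1, the catalytic subunit of complex IV, had the widest range between libraries, 9.30-fold. Its share of mitochondrial reads was 3.05%, 3.84% and 4.97% in WT at days 3, 6 and 8. In 3B126 it was 4.11%, 8.50% and 4.69%. In 3B77 it was 7.44% and 7.54% at days 3 and 6, and 17.1% in the library labelled day 8. It was 17.7% in 3A2 and 18.6% in 3A38 at day 3, 8.29% and 6.83% at day 6, and 28.4% in 3A38 at day 8. The 3AKO day 3 and day 8 libraries thus all lay above every WT and 3B126 library. mt-Cytb ran from 2.08% in 3B126 at day 3 to 14.4% in the library labelled 3B77 day 8, and mt-Nd1 from 2.60% in WT at day 3 to 8.98% in 3A38 at day 3. mt-Nd2, mt-Nd4, mt-Nd5 and mt-Nd6 stayed between 0.113% and 3.09% in every library.

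Per cell, the protein and rRNA genes varied together. Scaled to a cell's nuclear reads, the protein genes summed and the rRNA genes summed had a Spearman correlation of 0.449 to 0.875 within plates, positive in 15 of 15 (median 0.648). The 21 pairs of the 7 well-read protein genes had a median correlation of 0.550, and none was below 0.352. Cells with a larger mitochondrial share also had a larger rRNA percent in 14 of 15 plates, with a median correlation of 0.392. The exception was the library labelled 3B77 day 8, at -0.554. These correlations describe cells that share a plate, a depth scale and, for shares, a denominator.

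The tRNA genes set 2 plates apart from all others. Their percent of mitochondrial reads was 2.14% in 3B126 and 1.02% in WT at day 3. In the other 12 libraries it was 0.0191% in 3A2 at day 3 to 0.149% in WT at day 8. The 2 plates, both of batch 2, held 75.4% of all tRNA reads with 15.3% of the mitochondrial reads. The excess was carried by most cells: 73 of 73 cells of 3B126 and 53 of 74 cells of WT at day 3 had over 0.5% tRNA reads, against 19 of 818 cells elsewhere. Of the 14 tRNA genes, 10 had a higher share in both plates than in any other library. Beside them, 2.76% of the 35633 nuclear genes read were above every other plate in both. That count was made by plate and not on shares of mitochondrial reads, so that the 2 are not on the same scale.

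**Figure D4:**
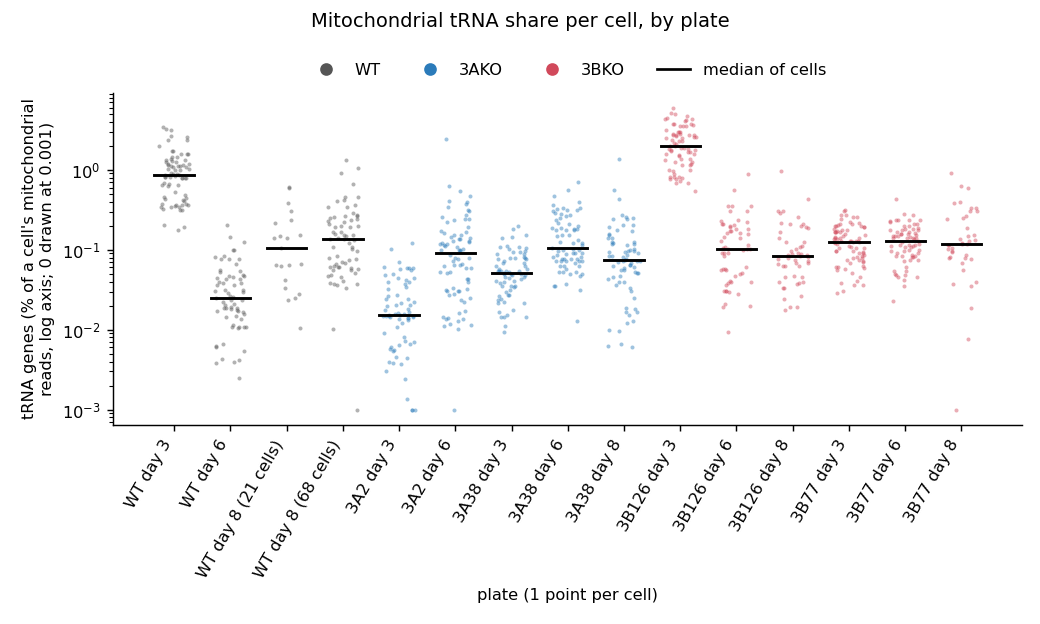
tRNA genes as a percent of a cell's mitochondrial reads (y axis, log scale, cells with 0 drawn at 0.001) in each of 15 plates (x axis), 1 point per cell, with a bar at the median. The medians are 1.99% in 3B126 and 0.872% in WT at day 3, and 0.0154% to 0.136% in the other 13 plates.

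The 3 tRNA genes whose sequences are given above held 87.95% of the 276631 tRNA reads: mt-Tq with 111649, mt-Tc with 87727 and mt-Tf with 43933. mt-Tq made up 0.976% of mitochondrial reads in 3B126 at day 3 and 0.400% in WT at day 3, and 0.00417% to 0.0569% in the other libraries. mt-Tc had 0.565% and 0.326% in these plates and at most 0.0857% elsewhere. mt-Tf had 0.399% and 0.173%, and at most 0.0213% elsewhere. These 3 genes lie at different places and on different strands, and each is the tRNA of another amino acid. mt-Ta (alanine) had 9961 reads, mt-Tp (proline) 6007, mt-Tt (threonine) 5645, mt-Tv (valine) 3111, mt-Tn (asparagine) 3108 and mt-Tl1 (leucine) 2132. mt-Tm (methionine) had 1071, mt-Ts2 (serine) 983, mt-Te (glutamate) 950, mt-Tl2 (leucine) 272 and mt-Ti (isoleucine) 82.

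Some other measures were also high in these 2 plates. Gm28438 had its highest counts there. mt-Rnr1 was 2.55% and 2.25% of the summed mitochondrial reads against 0.323% to 2.05% in the other libraries, but its median per cell, 3.09% and 2.61%, was exceeded by the 3.22% of the WT plate of 21 cells at day 8. The 79 nuclear genes of the respiratory chain summed to 80030 and 74714 CPM of nuclear reads, against 17908 to 39016 in the other 13 plates. Of these genes 20 were above every other plate in both and 11 were below every other plate in both. Much of the sum came from a pair of genes, Ndufa4 with 26536 and 17815 against at most 3670, and Cox7b with 11135 and 6221 against at most 1781, both small subunits assigned to complex IV. Of all 35633 nuclear genes read, 2.76% were above every other plate in both. The share of all genes below every other plate in both was not counted, so that the 11 cannot be set against it. Nuclear reads from genes with transcripts of at most 1000 bases were 17.4% and 15.6% there and 5.50% to 17.5% elsewhere. The part of these measures in the tRNA excess was not tested.

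The day test of the tRNA percent rested on these plates and did not pass. The mean was 0.676% ± 0.918 (SD, n = 5) at day 3, 0.110% ± 0.0432 (SD, n = 5) at day 6 and 0.127% ± 0.0226 (SD, n = 4) at day 8 (day 6 against day 3, exact permutation p = 0.373, adjusted p = 0.888). Without the 2 libraries, an alternative chosen after seeing the data, day 6 was 0.0369 points above day 3. Clone 3B77, of the same genotype as 3B126 but of batch 3, had 0.130% at day 3, so that within 3BKO the clones differed at day 3 by more than any 2 days of 3B77.

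In the test across all genes no mitochondrial gene was called. Counts were summed per clone and day, 24083 genes passed the filter on low counts, and 26 of the 28 members were among them; mt-Co2 and mt-Nd3 were not. edgeR's quasi-likelihood test called 0 of 26 members in each of 12 contrasts of days and genotypes at an adjusted p under 0.05. Of all genes it called 0.0374% for day 6 against day 3, 0.822% for day 8 against day 3, 0.00415% for 3BKO against 3AKO at day 8 and 0% in the other 9 contrasts. At an unadjusted p under 0.05 there were 8 members for day 6 against day 3, all tRNA genes, where 11.6% of all genes had such a p, and 5 for day 8 against day 3, where 16.3% had. There were 12 for 3BKO against 3AKO at day 3, 11 of them tRNA genes, beside 5.66% of all genes. There were 8 for 3AKO against WT at day 3, 7 of them tRNA genes, beside 7.62% of all genes, and 1, mt-Co1, in both day 8 contrasts of 3AKO.

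For day 6 against day 3, mt-Tf had a log2 fold change of -3.79 ± 1.06 (SE, adjusted p = 0.241), mt-Tq of -3.61 ± 1.15 (adjusted p = 0.288) and mt-Tc of -1.46 ± 0.85 (adjusted p = 0.567) in edgeR. The median over the 14 tRNA genes was -2.05, beside 0.11 for all genes tested, and 13 of the 14 were negative. Without the day 3 libraries of 3B126 and WT the log2 fold changes of mt-Tf, mt-Tq and mt-Tc were 0.20, 0.28 and 1.43, the other direction. DESeq2, which was run beside edgeR, called 4 members for this contrast (mt-Tf, mt-Tq, mt-Ts2 and mt-Tv, all lower at day 6) where it called 9.39% of all genes tested. It called 2 (mt-Tf and mt-Tq, both lower) for day 8 against day 3, where it called 18% of all genes, and 4 (mt-Tc, mt-Tf, mt-Tn and mt-Tv) for 3AKO against WT at day 3, beside 5.33%. In the other contrasts than these and the one described next DESeq2 called 0 members, beside 2.17% of all genes for day 8 against day 6, 1.35%, 0.447% and 0.111% for 3BKO against WT at days 3, 6 and 8, 0.312% and 3.82% for 3AKO against WT at days 6 and 8, and 0.861% and 6.19% for 3BKO against 3AKO at days 6 and 8.

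For 3BKO against 3AKO at day 3, mt-Rnr1 had a log2 fold change of 2.86 ± 0.82 (SE, adjusted p = 0.810 in edgeR), and the median of the 14 tRNA genes was 5.00 beside -0.00046 for all genes. DESeq2 called 8 members here, mt-Rnr1 and 7 tRNA genes, beside 2.79% of all genes. Leaving out clone 3B77, edgeR called 4 (mt-Ta, mt-Tc, mt-Tf and mt-Tv), with 133 of all 23400 genes tested. Leaving out clone 3B126 it called 0, and the median log2 fold change of the members was -0.19 in place of 2.69, so that the difference rests on clone 3B126. This contrast sets batch 1 against batches 2 and 3, and genotype and batch cannot be told apart in it. For 3AKO against WT at day 8, mt-Co1 had a log2 fold change of 3.13 ± 1.33 (SE, adjusted p = 0.816), with 1 library on each side. mt-Rnr2 had -0.80 ± 0.66 (SE, adjusted p = 0.663) for day 8 against day 3. The 3BKO against WT contrast at day 3, which joins 3B126 of batch 2 with 3B77 of batch 3, had 0 members with an unadjusted p under 0.05.

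The nuclear genes that serve the mitochondrial chromosome were likewise mostly not called. Of 30 genes of mitochondrial transcription and RNA processing, 1 was called, lower at day 8 than at day 3, a contrast in which 0.822% of all genes were called. This gene, Pnpt1, the mitochondrial polynucleotide phosphorylase, had a log2 fold change of -2.58 ± 0.58 (SE, edgeR adjusted p = 0.0498). Its TMM-scaled CPM at day 3 were 444 in 3B126, 320 in WT, 157 in 3B77, 125 in 3A2 and 107.9 in 3A38. At day 8 they were 44.9 in 3B126, 42.5 in WT, 34.5 in the library labelled 3B77 and 31.1 in 3A38, all below every day 3 library. Without the day 3 libraries of 3B126 and WT its log2 fold change was -1.94 and the adjusted p 0.252. None of the 79 respiratory-chain genes, of 80 mitochondrial ribosomal protein genes, of 11 genes of mitochondrial DNA replication or of 11 of mitochondrial biogenesis was called in any contrast, with medians for day 8 against day 3 of -0.50, -0.30, -0.33 and -0.15 beside -0.01 for all genes. At an unadjusted p under 0.05 in that contrast there were 13, 13, 0 and 0 of them, where 16.3% of all genes had such a p. For 3AKO against WT at day 3 there were 40 of the 79 respiratory-chain genes, with a median log2 fold change of -2.21 beside 0.35 for all genes, of which 7.62% had such a p. For 3BKO against 3AKO at day 3 there were 29 of 79, with a median of 1.21. Both contrasts hold a day 3 plate with high tRNA reads and set batch 1 against others, and none of these genes passed the adjustment.

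The genes most directly tied to mitochondrial DNA and RNA levels showed no call either, with a lowest edgeR adjusted p over the 12 contrasts of 0.341 (Slirp). All CPM of this paragraph are TMM-scaled. Against plain CPM this scaling raised 3B126 and WT at day 3, for mt-Tq from 2250 to 3922 and from 774 to 1083. It raised some of the other libraries and lowered others. Tfam, which packages mitochondrial DNA and starts its transcription, ran from 51.2 CPM in WT at day 8 to 158 in 3B77 at day 6. Polrmt, the mitochondrial RNA polymerase, ran from 3.34 to 22.2 CPM, and Polg, the DNA polymerase, from 3.17 to 32.01. Twnk, the replicative helicase, had 134 CPM in 3B126 and 164 in WT at day 3, 217 in 3A38 at day 8, and a median of 27.03 over the 14 libraries. Ssbp1, which binds single-stranded mitochondrial DNA, ran from 84.4 to 239.7 CPM. Lrpprc, which stabilises mitochondrial mRNA with Slirp, ran from 21.2 to 68.01 CPM. Slirp itself had 2287 CPM in 3B126 and 1766 in WT at day 3 and 55.03 to 424 elsewhere, the same plates that stood apart in tRNA reads. Ppargc1a, a coactivator of mitochondrial biogenesis, was near absent, with at most 2.37 CPM.

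Within plates, cells with a larger mitochondrial share had slightly fewer nuclear genes detected at equal depth. With each cell's nuclear reads thinned to 25000, which all 965 cells allowed, the Spearman correlation was negative in 14 of 15 plates, with a median of -0.101. It was strongest in 3B77 at day 3 (-0.612), WT at day 6 (-0.494) and 3A2 at day 3 (-0.419), and it was 0.0901 in 3A38 at day 6. In 3B77 at day 3 the lowest tercile of cells by mitochondrial share had a median of 4401.5 nuclear genes and the highest 3936. In WT at day 6 these were 4217.5 and 3458. As deposited, before thinning, the correlation with detected genes was negative in 9 plates and positive in 6 (median -0.0809), and the share was higher in cells with more reads in 13 of 15 plates (median 0.319). The plates themselves differed more, with medians of 2318 to 4357 nuclear genes in 25000 reads.

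**Figure D5:**
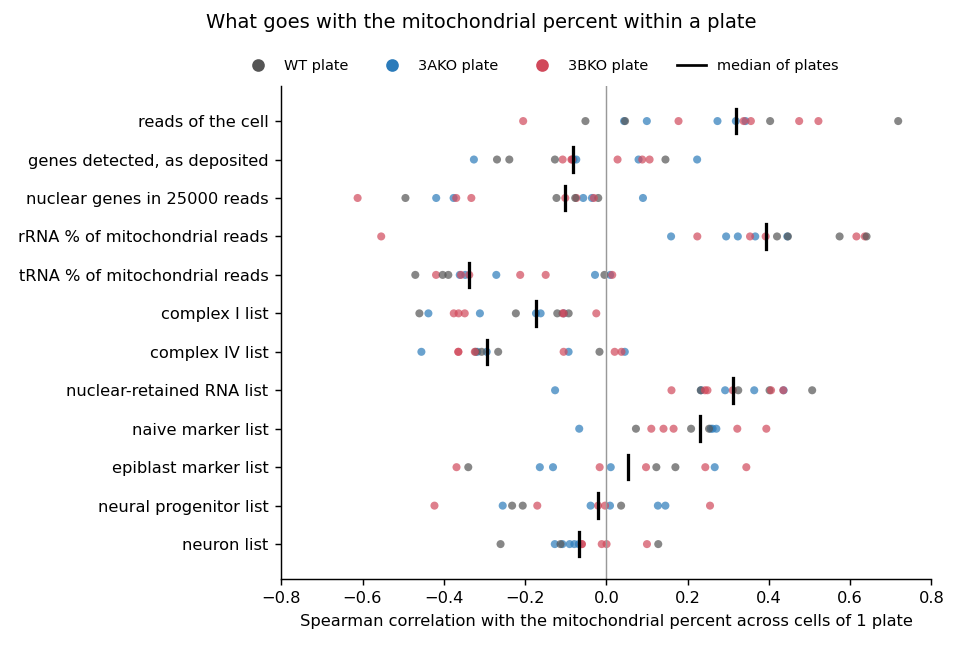
Spearman correlation (x axis) of the mitochondrial percent with each measure named on the y axis across the cells of 1 plate, 1 point per plate coloured by genotype, with a bar at the median of plates. The rRNA percent lies above 0 in 14 of 15 plates, the thinned gene number below 0 in 14 of 15, and the lineage lists lie on both sides of 0.

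Lineage markers went with the mitochondrial share only weakly. Marker levels were taken as CPM of the nuclear reads alone, so that no mitochondrial read enters them. The nuclear reads are still part of the denominator of the mitochondrial share, so that the 2 measures are not independent. The naive pluripotency list (Zfp42, Esrrb, Klf2, Klf4, Nanog, Tbx3, Dppa3, Tfcp2l1) had a median correlation of 0.231 over the 12 plates with enough marked cells, positive in 11. Cells with at least 100 CPM of the list had a higher median share than the other cells in 9 of 12 plates, with a median difference of 2.98 percentage points and a range of -1.14 to 9.40. In 3B126 at day 3 it was 23.7% in 34 cells against 14.3% in 39, and in 3B126 at day 8 21.8% in 16 cells against 15.0% in 35. Zfp42, a naive ESC marker, was positive in 9 of 9 plates (median 0.218), and Nanog in 10 of 13 (median 0.144). Tfcp2l1 was positive in 5 of 8 plates (median 0.0577), Klf4 in 1 of 2 (-0.0293) and Dppa3 in 0 of 1 (-0.133). In the 3A38 day 3 plate, where 55 of 70 cells passed, the list had -0.0668.

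The epiblast list had a median correlation of 0.0542 over 12 plates, positive in 7. Of its genes only Lefty2 (0.161) and Otx2 (0.0541) had a positive median. Pou5f1 (-0.147), Utf1 (-0.121), Lefty1 (-0.101), Fgf5 (-0.0842), Tdgf1 (-0.0437), Dnmt3b (-0.0159) and Dppa4 (-0.0151) had negative ones. Neural progenitor markers had -0.0204 over 13 plates and neuron markers -0.0678. In the progenitor list only Sox2 had a positive median (0.175), and Crabp2 (-0.147) was positive in 0 of 11 plates. Endothelial, mesenchyme and streak and endoderm markers had 0.0315, 0.0477 and 0.0708 over 5, 5 and 4 plates. Blood markers reached 10 marked cells in 1 plate, and myeloid, cardiac and visceral endoderm markers in none. Among the epiblast, neural progenitor and neuron lists, the neuron list went one way most often, negative in 10 of 13 plates. The other lists of this paragraph were measured in at most 5 plates, too few for such a count.

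Nuclear respiratory-chain genes did not follow the mitochondrial ones from cell to cell. The complex I list was negative in 15 of 15 plates (median -0.173), and complexes III, IV and V in 14, 12 and 13, with medians of -0.292, -0.294 and -0.217. The mitochondrial protein genes per nuclear read had a median correlation of -0.199 with the 79 nuclear subunits. The nuclear-retained RNA list was positive in 14 of 15 plates (median 0.311), with Malat1, a nuclear long non-coding RNA, at 0.318. The other genes of the list were lower: Xist at 0.0619, Kcnq1ot1 at 0.0201, Neat1 at 0.00242 and Meg3 at -0.0334. The p53 and death list was positive in 12 of 15 plates (median 0.181). Of its 10 genes, Ccng1 was positive in 13 of 15 plates (median 0.255) and Bax negative in 14 (-0.110).

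Among 1232 nuclear genes read in at least 50% of the cells of every plate, the median correlation with the mitochondrial share was -0.0771, over 0.2 for 123 genes and under -0.2 for 305. The most positive were Slc25a5 (0.618), the adenine nucleotide carrier of the inner mitochondrial membrane, Mir703 (0.602), Hnrnpa2b1 (0.600), Sub1 (0.583), Snrpe (0.558), Ube2d3 (0.533), Hnrnpdl (0.507), Rpl39 (0.5004), Ddx3x (0.494) and Cetn3 (0.492). Slc25a5 was positive in 15 of 15 plates, from 0.271 to 0.799. Among the most negative were Gm15564 (-0.541), Rpl31 (-0.530), Rps13-ps1 (-0.507), Hspa8 (-0.503), Sod1 (-0.492), Rpl21 (-0.472), Rps27a (-0.464), Hsp90ab1 (-0.463) and Rps4x (-0.462). These are ribosomal protein genes or a pseudogene of that family, the cytosolic chaperones Hspa8 and Hsp90ab1, the superoxide dismutase Sod1 and a predicted gene, and of those named all but Sod1 were negative in 15 of 15 plates. Ribosomal protein genes have many processed copies, so that their counts without multi-mapped reads are uncertain.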

How the data were processed

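The deposited table holds raw read counts per gene and cell that the authors made with Trim Galore 0.5.0, STAR 2.7.1a on mm10 (GRCm38.p6) and featureCounts 1.6.1 over GENCODE M23 exons by gene name. Multi-mapped reads were left out, and no source used here gives the strand setting, so that antisense reads cannot be told apart. All 965 cells met the stated limits of 50000 reads, 2000 genes and 50% mitochondrial reads, and had 50096 to 3442378 reads. The authors had no identifiers for molecules, so counts include PCR copies.

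Library values (14 clones by day) were compared by exact two-sided permutation tests (scipy 1.17.1), 18 in all. Counts summed per library (9810248 to 44529830 reads) were fitted with edgeR 4.0.16 (filterByExpr, TMM, glmQLFit, glmQLFTest; 9 genotype-by-day means; SE from log2 fold change and F), with DESeq2 1.42.0 and other filters, scalings and left-out libraries as alternatives. The single WT library of each day takes its spread from the knockout clones. The p-values measure the spread between clones. Clone pairs the libraries across days, since these are the same lines. Deviations from the group means of a clone's libraries correlated at -0.00199 to 0.149 between days. Thinned counts were drawn once per cell at random. Scripts were tested on simulated data. Sequences and positions come from GENCODE M21 (GRCm38). Members and gene lists were chosen with earlier results of these data known. Named nuclear genes were 8 fixed regulators, list genes called, and the 10 highest and 10 lowest correlations with the mitochondrial share, of which 1 gene is not reported here. Ndufa4, Cox7b and single list genes were named after their values were seen.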

Additional observations from a re-analysis of the deposited data

Results flagged for a closer look

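The change in rRNA percent of mitochondrial reads from day 3 to day 6 went opposite ways in 3AKO and WT. It was higher at day 6 in both 3AKO clones, by a mean of 11.7 points, while in WT the change was -3.55 points, a difference that was not tested. In the 3BKO clones it was -10.4 points in 3B126 and 4.35 points in 3B77, so that the sign was negative in batch 2 and positive in batches 1 and 3, and genotype and batch cannot be told apart.

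The tRNA percent also went opposite ways between these days, up by a mean of 0.0819 points in both 3AKO clones with a change of -0.982 points in WT. This difference was not tested, and the WT value rests on the day 3 plate that stood apart in tRNA reads. Dixon's test, which looks for 1 extreme library at a day, passed its critical value in no measure. It cannot show the pair of high tRNA libraries at day 3, where the gap of the highest was 0.530 of the range against a critical 0.71.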

How the results depend on the processing

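No test over libraries passed under any alternative, so the signs below are those of differences that were not called, and the cause of each turn was not tested. For the mitochondrial percent, protein genes alone gave -0.559 (day 6 minus day 3), 0.270 (day 8 minus day 3), 0.830 (day 8 minus day 6) and -0.212 (3BKO minus other clones, day 8). Leaving out mt-Rnr2, chosen after seeing the data, gave -0.392 for day 6 minus day 3, 0.301 for day 8 minus day 6, and 0.0447 and -0.201 for 3BKO at days 6 and 8. Cells with at most 25% mitochondrial reads gave -0.254 for day 6 minus day 3 and -0.000955 for 3BKO at day 8. Summed reads gave -0.896 and the mean over cells -0.212 for 3BKO at day 8. The rRNA percent of 3BKO turned to -0.111 (median over cells) and -0.791 (cells of at most 25%) at day 6. At day 8 it turned to -1.16 without mt-Nd2, mt-Co1, mt-Co2, mt-Atp8, mt-Atp6 and mt-Co3. That set keeps mt-Nd3 and mt-Nd4, which have copies on chromosome 1, so that it does not remove all copied genes. Without the library labelled 3B77 day 8 and the larger WT plate of day 8, the tRNA percent gave -0.0124 for day 8 minus day 6 and 0.0152 for 3BKO at day 8. Without the day 3 libraries of 3B126 and WT, chosen after seeing the data, the rRNA percent gave 2.29 for day 8 minus day 3, the tRNA percent 0.0369 and 0.0546 for days 6 and 8 minus day 3, and the log2 fold changes of mt-Tq, mt-Tf, mt-Tv and mt-Tc for day 6 against day 3 were 0.28, 0.20, 1.12 and 1.43.

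Members called for day 6 against day 3, day 8 against day 3, 3AKO against WT at day 3 and 3BKO against 3AKO at day 3 were 4, 3, 5 and 6 with no filter on low counts and 4, 2, 4 and 8 with DESeq2, against 0 in edgeR with the filter. With no filter 808, 1555, 172 and 220 of all 35661 genes were called in these contrasts, and with DESeq2 1428, 2736, 711 and 424. Leaving out 1 clone at a time gave 0 to 4, 0 to 3 and 0 to 4 for the first, second and last of these. Without 3A2, which gave the 4 and the 3, 556 and 1051 of all 23416 genes were called, and without 3B77, which gave the last 4, 133 of 23400. It moved the mitochondrial percent of 3BKO between -10.0 and 7.14 at day 6 and between -2.17 and 2.75 at day 8, the rRNA percent between -3.82 and 5.24 and between -14.4 and 18.99, the tRNA percent of 3BKO between -0.239 and 1.78 at day 3 and -0.0225 and 0.0179 at day 8, and that of day 8 minus day 6 between -0.00785 and 0.0327.

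Of all genes, edgeR called 9 for day 6 against day 3 and 0 to 1428 under the alternatives, and 198 for day 8 against day 3 and 0 to 2736. With clone as a replicate block these were 67 and 394, and the block changed no call of a member or of a library value. The call of Pnpt1 rests near its threshold, with adjusted p from 0.000216 (DESeq2) to 0.252 (without the day 3 libraries of 3B126 and WT), and 0.118 without WT.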
